A study of Mus musculus with 9 samples.

Results

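NRF2 target genes, the antioxidant and detoxification genes driven by the transcription factor NRF2 (encoded by Nfe2l2), were followed through 9 libraries of LPS-treated mouse macrophages. The set was a fixed list of 38 genes: NRF2 itself, its regulators, and genes of the heme, detoxification, glutathione, thioredoxin, NADPH and export arms of the response. Of the 22165 gene rows in the deposited table, 38 carried a listed symbol, and all 38 passed the filter on low counts. The list names genes rather than values, and it was chosen with earlier results of these data known.

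In unstressed cells KEAP1, a cysteine-rich adaptor of a CUL3 ubiquitin ligase, marks NRF2 for degradation. Electrophiles and oxidants modify KEAP1, NRF2 then accumulates, pairs with small MAF proteins and binds antioxidant response elements, while BACH1 competes for the same elements. Itaconate, which macrophages make in quantity after LPS, is known to react with cysteines, among them those of KEAP1, most readily as cell-permeable esters.

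The labels describe bone marrow-derived macrophages (BMDM), grown in culture from marrow of C57BL/6N mice aged 6 to 16 weeks, in 3 groups of 3 libraries. The Irg1KO+ITA libraries come from Irg1-/- cells given LPS and, 4 h later, 1 mM itaconate. The Irg1KO libraries come from Irg1-/- cells given LPS alone, and the WT libraries from wildtype cells given LPS alone. LPS was at 100 ng/mL, cells of all groups were taken 24 h after it, and an unstimulated group was not analysed here, so no induction by LPS can be read. Whether the 3 libraries of a label stem from different mice or dishes is not stated, so p-values here measure the spread among libraries, which could be purely technical.

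Irg1 (Acod1), the enzyme that makes itaconate, went against the labels of 4 libraries. It stood at 8.68, 0.877 and 6421 CPM (gene reads scaled to library size with TMM factors) in the libraries labelled Irg1KO+ITA replicates 1 to 3, at 7.53, 12.9 and 4421 CPM in those labelled Irg1KO, and at 11.3, 9.14 and 4170.1 CPM in those labelled WT. High values were thus found in replicate 3 of every label, and the library labelled WT replicate 3 was the only high one among WT. The deleted stretch of the gene is not named. In libraries labelled Irg1KO+ITA and Irg1KO, 3′ reads may lie outside it, which was not tested. Replicates 1 and 2 of these 2 labels stood at 0.877 to 12.9 CPM. Libraries of the same label spanned 0.877 to 6421 CPM under Irg1KO+ITA, 7.53 to 4421 CPM under Irg1KO and 9.14 to 4170.1 CPM under WT. Every direction below is between labels and carries this conflict, and results are also given without the 4 libraries (Irg1KO+ITA replicate 3, Irg1KO replicate 3, WT replicates 1 and 2). That setting leaves 1 WT library, assumed to vary like the other groups.

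Gene reads per library numbered 7361671 to 20430359. One Irg1KO+ITA library, replicate 3, stood apart: its log2 CPM correlated with those of the other libraries at 0.909 on average, against 0.939 to 0.954 for the rest. Reads outside annotated genes made up 33.7% of its reads, against 23.1% to 28.4% elsewhere. Mitochondrial genes took 1.73%, 1.27% and 0.709% of gene reads in Irg1KO+ITA replicates 1 to 3, against 1.72% to 2.21% under Irg1KO and 2.08% to 2.57% under WT, and their part in the results was not tested. All 8 macrophage markers (Adgre1, Csf1r, Cd68, Lyz2, Mertk, Fcgr1, Itgam and Cd14) had reads in every library. Their summed level was 3349.7 to 7285 CPM under Irg1KO+ITA, 6671 to 7449 CPM under Irg1KO and 7591 to 10155 CPM under WT. The 6 neutrophil markers summed to 72.8 to 220.2 CPM, 164 to 217 CPM and 249 to 258 CPM in the same order. Over all libraries S100a8 stood at 33.4 to 178 CPM and S100a9 at 37.8 to 88.7 CPM. Ngp, Ltf and Camp reached at most 5.84, 4.12 and 1.63 CPM, and the defining marker Ly6g stood at 0 to 0.294 CPM. The 4 fibroblast markers summed to 153 to 239.8 CPM, 176 to 206 CPM and 171 to 248 CPM. Across libraries Col1a2, Col1a1 and Dcn stood at 92.4 to 172, 18.2 to 60.1 and 20.3 to 42.7 CPM. Pdgfra stood at 0.106 to 1.42 CPM. No list for T, B, dendritic, mast or erythroid cells exceeded 1.47 CPM in a library. The part of these cell types in the results was not tested, and in bulk libraries fewer cells of a type and less RNA per cell cannot be told apart.

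A number in the description labels was read as a possible batch, although the labels do not define it. Number 1 holds all WT libraries and Irg1KO replicates 1 and 2, number 2 holds Irg1KO replicate 3 and Irg1KO+ITA replicate 1, and numbers 3 and 4 hold Irg1KO+ITA replicates 2 and 3.

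The antioxidant response element has the core TGACNNNGC, which was searched on both strands in the 250 bases before each RefSeq transcript start. Of the 33 members with an entry in the RefSeq promoter table (GRCm38.p6), 9 had a match (27.3%), against 11.5% of all 27025 genes with an entry. The 9 were Nfe2l2, Blvra, Gclm, Prdx1, Mgst1, Txnrd1, Abcc4, Sod1 and G6pdx, and Hmox1, Gclc, Gsr, Prdx6 and Abcc1 had no entry. Matches of the 5 described most fully below are shown with up to 30 bases on each side, 5′ to 3′ on the strand of the gene, with the match in capitals. Its end lies 232, 126, 125, 84 and 49 bases before a RefSeq transcript start in the order given. In all but Nfe2l2 the core reads on the opposite strand.
Nfe2l2: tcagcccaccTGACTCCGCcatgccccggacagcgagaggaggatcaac
Gclm: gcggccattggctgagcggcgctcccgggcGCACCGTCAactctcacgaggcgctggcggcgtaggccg
Prdx1: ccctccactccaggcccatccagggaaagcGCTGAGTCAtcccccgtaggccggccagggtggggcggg
Txnrd1: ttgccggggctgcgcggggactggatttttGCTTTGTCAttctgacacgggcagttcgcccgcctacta
G6pdx: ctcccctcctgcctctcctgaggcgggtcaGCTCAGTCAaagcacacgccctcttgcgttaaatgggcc
They lie at chr2:75704865-75704913 (minus strand), chr3:122245393-122245461 (plus), chr4:116685436-116685504 (plus), chr10:82859084-82859152 (plus) and chrX:74428899-74428967 (minus). The stretches of Txnrd1 and G6pdx fall inside the annotated genes (chr10:82833951-82897712 and chrX:74409483-74429194), so they precede a transcript start within the gene. The Prdx1 match holds TGACTCA, the AP-1 heptamer, which overlaps the element there and in none of the other 9 matches of members. A match describes these letters only; binding was not measured. The 9 genes with a match had median log2 fold changes of -0.27 for Irg1KO+ITA minus Irg1KO, -0.1 for Irg1KO minus WT and -0.04 for Irg1KO+ITA minus WT. The 24 members with an entry and no match had medians of 0.05, -0.3 and -0.23. Only 250 bases were searched, so a gene without a match may still have an element elsewhere. The difference between these sets was not tested.

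Libraries labelled Irg1KO+ITA were compared with those labelled Irg1KO, by label a contrast of added itaconate in cells lacking the enzyme. Irg1 was high in replicate 3 of both labels. No member passed the edgeR threshold (0 of 38, and 0% of 10781 genes), with Nfe2l2 lowest at an adjusted p = 0.507, and DESeq2 called none either. Below an unadjusted p of 0.05 lay 4 members (10.5%, against 8.3% of all genes): Hmox1 was on the higher side, and Nfe2l2, Abcc1 and Abcc4 on the lower. The 2 groups did not overlap for 3 members (7.89%, against 10.9% of all genes), namely Hmox1 and Nqo1 with Irg1KO+ITA above and Nfe2l2 with Irg1KO+ITA below. Both shares lie near the background. By arm, all 7 glutathione genes and all 3 heme genes had values above 0, with medians of 0.44 and 0.13. Of these, Gss (0.0018 ± 0.35), Gclm, Gpx1, Blvra and Blvrb had values smaller than their SE. Of the detoxification genes 7 of 8 lay below 0, with a median of -0.18. Among all genes tested 48.4% lay above 0 and 51.6% below. The glutathione and heme counts were the same without the 4 libraries, with medians of 0.42 and 0.68, whereas 4 of 8 detoxification genes then lay below 0 (median 0.07). With the description number as a term, Irg1KO+ITA replicate 1 is set against Irg1KO replicate 3 alone, which goes against its label. In that fit 4 of 7 glutathione genes lay below 0 (median -0.16) and the detoxification genes were again split 4 to 4. Over all members 22 lay above 0 and 16 below, with a median of 0.04, where all genes tested had a median of -0.02. Without the 4 libraries the median was 0.29 and 26 members lay above 0.

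Setting libraries labelled Irg1KO against WT ones addresses the effect of losing the enzyme. By edgeR no member passed (0 of 38, and 0% of all genes, every member at an adjusted p of 0.995 or above), nor did any by DESeq2. Nfe2l2, Txnrd1 and Abcc1 reached an unadjusted p under 0.05, all on the higher side (7.89% of members, against 3.13% of all genes). The groups did not overlap for 8 members (21.1%, against 10.6% of all genes). Of these, Nfe2l2 and Txnrd1 lay above WT, and Nqo1, Osgin1, Gsto1, Gpx1, Prdx5 and Sod1 below it. Over all members 27 lay below 0 (71.1%, against 51.1% of all genes), with a median of -0.22 against -0.01 over all genes tested. The median was 0.01 without the library labelled WT replicate 3 and -0.08 without Irg1KO replicate 1, and it was -0.58 without the 4 libraries, where WT replicate 3 is the only WT library.

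Libraries labelled Irg1KO+ITA were also set against those labelled WT. Again none passed by edgeR (0 of 38, and 0% of all genes, Gclc lowest at an adjusted p = 0.538) or by DESeq2. Below an unadjusted p of 0.05 lay 5 members (13.2%, against 8.89% of all genes). Gclc, Gsr and Keap1 lay on the higher side, and Prdx5 and Osgin1 on the lower. The groups did not overlap for 6 members (15.8%, against 14.6% of all genes): Gclc and Gsr lay above WT, and Prdx5, Ephx1, Mgst1 and Gpx1 below. All 8 detoxification genes had values below 0, with a median of -0.46, and 5 of 7 glutathione genes lay above 0, with a median of 0.18. Among all genes tested 50.9% lay below 0 and 49.1% above. Without the 4 libraries 7 of 8 detoxification genes lay below 0 and 3 of 7 glutathione genes above it. With the description number as a term 5 of 8 detoxification genes lay below 0 and 1 of 7 glutathione genes above it. Over all members 25 lay below 0 with a median of -0.09, which was -0.32 without Irg1KO+ITA replicate 1, -0.25 without WT replicate 2 and -0.24 without the 4 libraries. The 3 comparisons share their groups pairwise, so their values are not independent of each other.

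**Figure D1:**
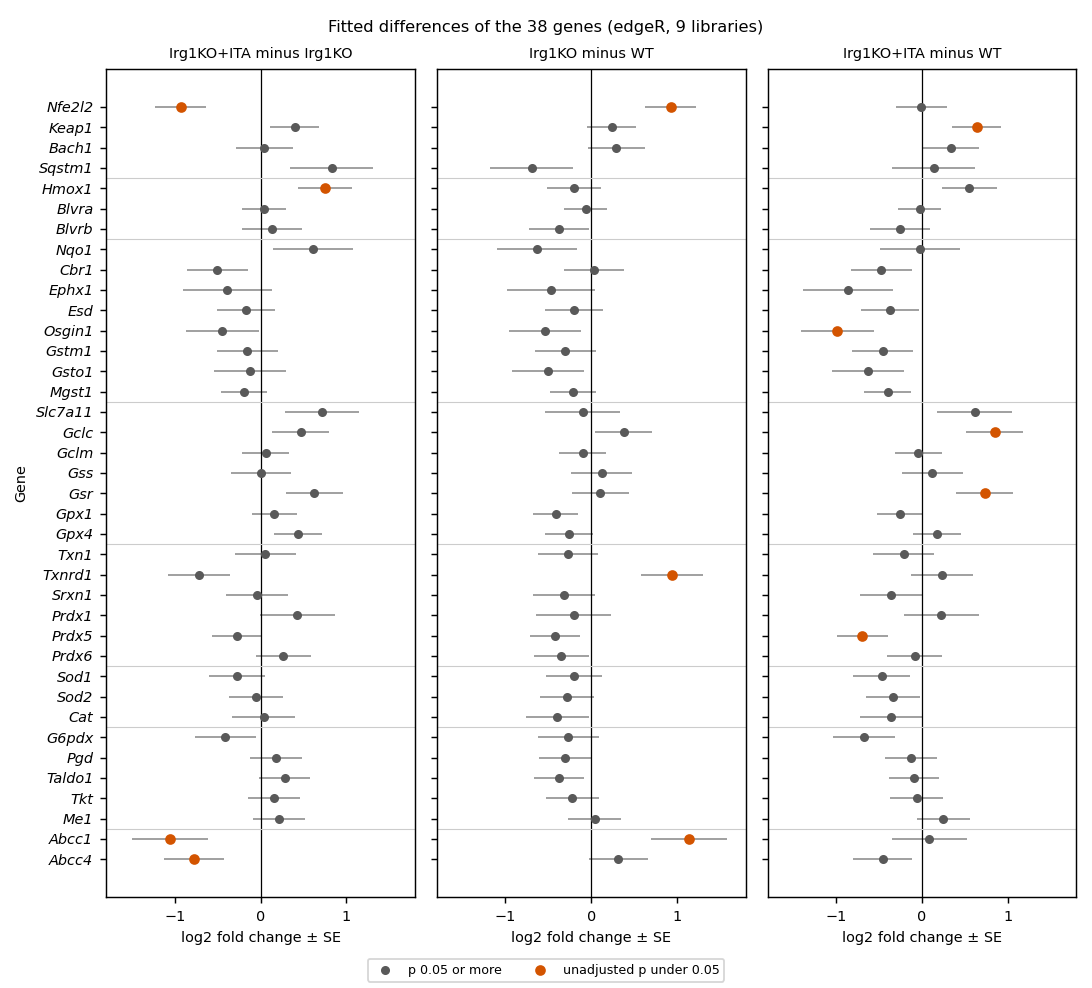
Fitted log2 fold change (horizontal axis, bars are ± 1 SE) of each of the 38 genes (vertical axis, grouped by arm) in the 3 comparisons. Orange points have an unadjusted p under 0.05: 4, 3 and 5 genes from left to right, none of which passed after adjustment.

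Of the sensing genes, Nfe2l2 (ENSMUSG00000015839.6, GRCm38 chr2:75675513-75704641, minus strand), which encodes NRF2, had the smallest p of all members in the first 2 comparisons. It stood at 153, 141 and 239.6 CPM in libraries labelled Irg1KO+ITA replicates 1 to 3, at 364, 248 and 405 CPM in those labelled Irg1KO, and at 203, 170.1 and 162 CPM in those labelled WT. All Irg1KO libraries lay above all 6 others, with a narrow gap between 239.6 CPM in Irg1KO+ITA replicate 3 and 248 CPM in Irg1KO replicate 2. Irg1KO+ITA minus Irg1KO was -0.93 ± 0.30 (SE) on the log2 scale (edgeR adjusted p = 0.507), and Irg1KO minus WT was 0.93 ± 0.30 (edgeR adjusted p = 0.995). These values kept their sign under all 18 and 19 alternative settings tried, and were -1.08 and 0.93 without the 4 libraries. Irg1KO+ITA minus WT was -0.01 ± 0.30.

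Keap1, the adaptor that holds NRF2 low, stood at 218, 249.8 and 374 CPM under Irg1KO+ITA, 195, 206 and 238 CPM under Irg1KO, and 224, 163 and 155 CPM under WT. The highest value was in Irg1KO+ITA replicate 3, the library that stood apart, and the groups overlapped in every comparison. The log2 difference Irg1KO+ITA minus WT was 0.64 ± 0.29 (edgeR adjusted p = 0.549), or 0.38 without that library. Bach1, the repressor that competes with NRF2, stood at 158, 199 and 340.0 CPM under Irg1KO+ITA, 232, 207 and 238 CPM under Irg1KO, and 263, 150.0 and 140.3 CPM under WT, with overlap of the groups throughout. Sqstm1, which encodes p62, an autophagy receptor that can sequester KEAP1 and is itself an NRF2 target, stood at 436, 1132 and 1080.5 CPM under Irg1KO+ITA, 439, 441 and 609.9 CPM under Irg1KO, and 547, 321 and 1542 CPM under WT. The WT libraries alone spanned its whole range of 4.8-fold. Irg1KO minus WT was -0.69 ± 0.48 for Sqstm1 with all libraries, 0.19 without WT replicate 3 and -1.79 ± 0.44 without the 4 (edgeR adjusted p = 0.163).

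**Figure D2:**
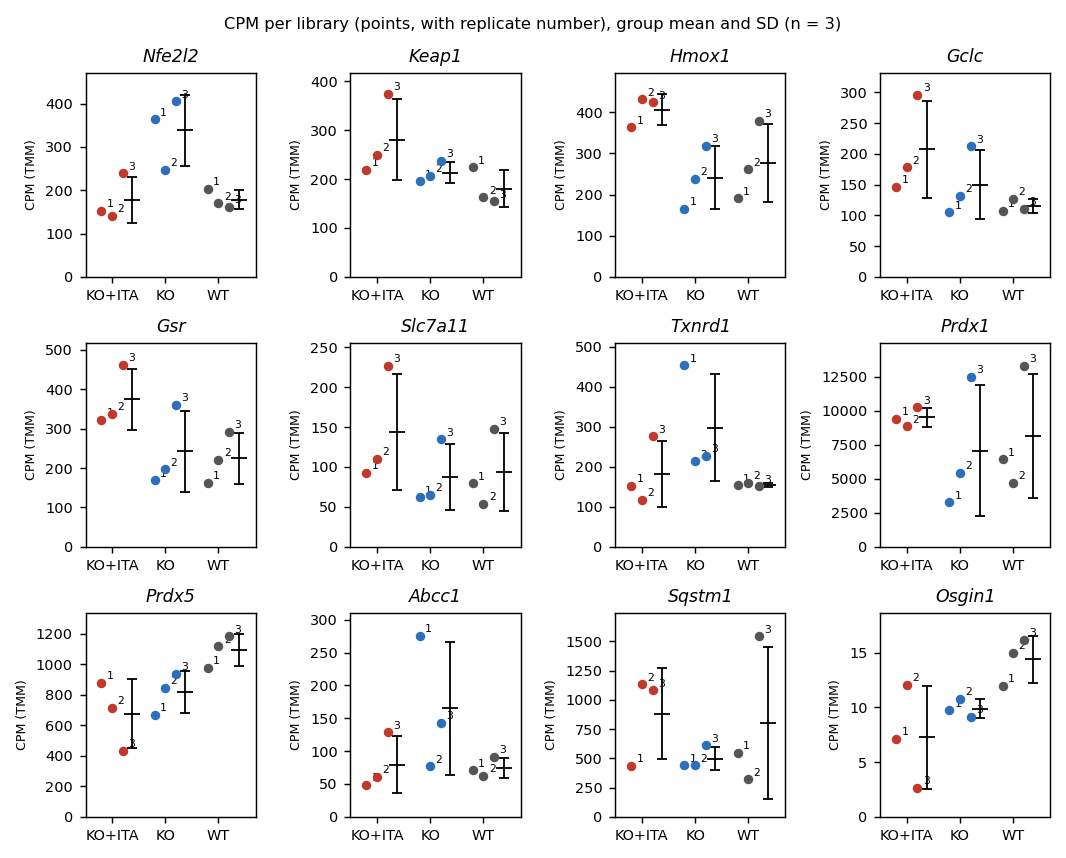
Scaled CPM (vertical axes, from 0) of 12 of the 38 genes in libraries labelled Irg1KO+ITA (KO+ITA), Irg1KO (KO) and WT, with points for libraries, replicate numbers beside them, and bars for the mean and SD of 3 libraries. For Nfe2l2 the 3 Irg1KO points, 248 to 405 CPM, lie above all others, and for Hmox1 the 3 Irg1KO+ITA points, 363 to 432 CPM, lie above all Irg1KO points.

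In the heme arm, Hmox1 (ENSMUSG00000005413.7), the inducible heme oxygenase and a classical NRF2 and BACH1 target, stood at 363, 432 and 425 CPM under Irg1KO+ITA, 166, 239 and 318 CPM under Irg1KO, and 191, 261 and 379 CPM under WT. The Irg1KO+ITA libraries lay above every Irg1KO library and overlapped with WT through WT replicate 3. On the log2 scale Irg1KO+ITA minus Irg1KO was 0.76 ± 0.32 (edgeR adjusted p = 0.568), between 0.54 without Irg1KO replicate 1 and 1.00 without Irg1KO replicate 3, and 0.94 without the 4 libraries. Irg1KO+ITA minus WT was 0.55 ± 0.32, or 0.06 without the 4. The biliverdin reductases, which turn the product of heme oxygenase into bilirubin, gave -0.03 ± 0.25 for Blvra and -0.25 ± 0.35 for Blvrb in that comparison. Blvra had the narrowest range of all members, 1.27-fold over the 9 libraries.

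With the description number as a term, the Irg1KO+ITA minus Irg1KO value rests on the 2 libraries of number 2. Of these, Irg1KO replicate 3 goes against its label. The value was -1.41 ± 0.43 for Nfe2l2, 0.19 ± 0.49 for Hmox1, -1.54 ± 0.68 for Abcc1 and 0.2 ± 0.49 for Abcc4. Its sign differed from that of the fit without the term for 15 of 38 members, among them Slc7a11 (-0.54), Gclc (-0.53), Gsr (-0.16), Sqstm1 (-0.49), Prdx1 (-0.41) and Keap1 (-0.12). Within number 1, where WT replicates 1 and 2 go against their label, Irg1KO minus WT was 0.8 for Nfe2l2, 1.13 for Txnrd1 and 1.26 for Abcc1. No number holds both Irg1KO+ITA and WT libraries, so these groups and the number cannot be told apart, and a fit through the other groups gave -0.49 for Gclc, -0.46 for Gsr and -0.26 for Hmox1, with a changed sign for 16 members.

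Of the detoxification genes, Nqo1, the quinone reductase often used as a readout of NRF2, was scarce in these cells, with 23 to 66 reads per library. It stood at 5.45, 3.29 and 3.07 CPM under Irg1KO+ITA, 2.49, 2.87 and 2.36 CPM under Irg1KO, and 3.72, 5.15 and 3.08 CPM under WT. The Irg1KO libraries were the lowest of the 9, at the precision these reads allow. Irg1KO+ITA minus Irg1KO was 0.61 ± 0.47 (edgeR adjusted p = 0.746), or 0.3 without Irg1KO+ITA replicate 1. Irg1KO minus WT was -0.63 ± 0.47, or -0.4 without WT replicate 2 and -0.18 without the 4 libraries. Osgin1, an oxidative-stress-induced growth inhibitor, stood at 7.11, 12.1 and 2.64 CPM under Irg1KO+ITA, 9.72, 10.8 and 9.15 CPM under Irg1KO, and 12.0, 15.0 and 16.2 CPM under WT. Its lowest value, in the library that stood apart, set much of the difference. Irg1KO+ITA minus WT was -0.99 ± 0.43 (edgeR adjusted p = 0.549), and -0.59 without Irg1KO+ITA replicate 3. Osgin1 had the widest range of all members, 6.12-fold.

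The other detoxification members were the carbonyl reductase Cbr1, the microsomal epoxide hydrolase Ephx1, the esterase Esd and the glutathione transferases Gstm1, Gsto1 and Mgst1. For Irg1KO+ITA minus WT their log2 fold changes lay between -0.86 ± 0.52 (Ephx1, 13 to 52 reads per library) and -0.37 ± 0.34 (Esd). Gsto1 gave -0.63 ± 0.42, and -0.2 without Irg1KO+ITA replicate 3, where it stood at 7.93 CPM against 20.1 to 41.5 CPM in the 8 others. Mgst1 gave -0.4 ± 0.27 and its groups did not overlap. Gstm1 belongs to a family of similar genes, and the table counts reads that align to several places apart from the genes, so it is measured less certainly.

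Glutathione synthesis starts with cystine uptake by the transporter Slc7a11, which stood at 93.0, 111 and 227 CPM under Irg1KO+ITA, 62.0, 65.5 and 135 CPM under Irg1KO, and 79.6, 54.0 and 148 CPM under WT. Replicate 3 was the highest library of each label. Irg1KO+ITA minus Irg1KO was 0.72 ± 0.44 (edgeR adjusted p = 0.687), and 0.21 without Irg1KO+ITA replicate 3. Gclc (ENSMUSG00000032350.8), the catalytic subunit of the rate-limiting ligase, stood at 147, 178 and 297 CPM under Irg1KO+ITA, 105, 132 and 213 CPM under Irg1KO, and 107, 127 and 111 CPM under WT. All Irg1KO+ITA libraries lay above all WT libraries, and Irg1KO+ITA minus WT was 0.85 ± 0.33 (edgeR adjusted p = 0.538), the smallest p of a member in that comparison. It was 0.5 without Irg1KO+ITA replicate 3 and 0.55 without the 4 libraries.

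Gclm, the modifier subunit of the same ligase, did not follow Gclc in its values, with 715, 861 and 669.6 CPM under Irg1KO+ITA, 559, 721 and 876 CPM under Irg1KO, and 759.9, 625 and 927 CPM under WT. Its groups overlapped and Irg1KO+ITA minus WT was -0.04 ± 0.28. The difference between the subunits was not tested. Gss, the glutathione synthetase, gave 0.12 ± 0.35 in that comparison. Gsr, the NADPH-dependent reductase that regenerates glutathione, stood at 322, 337 and 462 CPM under Irg1KO+ITA, 169, 197 and 360.3 CPM under Irg1KO, and 163, 220.2 and 293 CPM under WT. The Irg1KO+ITA libraries lay above all WT libraries and above 2 of 3 Irg1KO libraries. The log2 difference Irg1KO+ITA minus WT was 0.73 ± 0.33 (edgeR adjusted p = 0.552), or 0.17 without the 4 libraries, and Irg1KO+ITA minus Irg1KO was 0.63 ± 0.33 (edgeR adjusted p = 0.633), or 0.82 without the 4.

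Of the glutathione peroxidases, Gpx1 stood at 337, 331 and 239 CPM under Irg1KO+ITA, 216, 319 and 276 CPM under Irg1KO, and 344, 345 and 393 CPM under WT. All WT libraries lay above all others, and Irg1KO minus WT was -0.42 ± 0.27 (edgeR adjusted p = 0.995). Gpx4, which reduces lipid peroxides in membranes, gave 0.44 ± 0.28 for Irg1KO+ITA minus Irg1KO (edgeR adjusted p = 0.696) and -0.26 ± 0.28 for Irg1KO minus WT, with overlap in both.

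In the thioredoxin arm, Txnrd1 (ENSMUSG00000020250.9), the cytosolic thioredoxin reductase, stood at 152, 117 and 276 CPM under Irg1KO+ITA, 453, 214 and 227 CPM under Irg1KO, and 153, 159.9 and 151 CPM under WT. The WT libraries were close together and below every Irg1KO library, while the Irg1KO mean was carried by replicate 1. Irg1KO minus WT was 0.94 ± 0.36 (edgeR adjusted p = 0.995), and 0.51 without Irg1KO replicate 1. Irg1KO+ITA minus Irg1KO was -0.71 ± 0.36 (edgeR adjusted p = 0.619), or -0.28 without Irg1KO replicate 1 and -1.33 ± 0.38 without the 4 libraries (edgeR adjusted p = 0.0724). Thioredoxin itself, Txn1, gave 0.06 ± 0.35 and -0.27 ± 0.35 for Irg1KO+ITA minus Irg1KO and Irg1KO minus WT.

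Srxn1, the sulfiredoxin that repairs over-oxidised peroxiredoxins, stood at 89.9, 69.2 and 61.9 CPM under Irg1KO+ITA, 52.0, 74.3 and 101 CPM under Irg1KO, and 86.9, 54.0 and 144 CPM under WT, with overlap throughout. Prdx1, an abundant cytosolic peroxiredoxin, stood at 9407, 8854 and 10255 CPM under Irg1KO+ITA, 3268, 5434 and 12517 CPM under Irg1KO, and 6440.5, 4691 and 13305 CPM under WT. The Irg1KO+ITA libraries were close together, whereas replicate 3 stood far above replicates 1 and 2 under the other 2 labels. On the log2 scale Irg1KO+ITA minus Irg1KO was 0.43 ± 0.44 for Prdx1 with all libraries, 0.08 without Irg1KO replicate 1, 1.12 without Irg1KO replicate 3 and 1.04 ± 0.30 without the 4 (edgeR adjusted p = 0.0726). Irg1KO minus WT was -0.2 ± 0.44, 0.35 without WT replicate 3 and -1.59 ± 0.35 without the 4 (edgeR adjusted p = 0.158).

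Prdx5, a mitochondrial and peroxisomal peroxiredoxin, stood at 879.8, 714 and 433 CPM under Irg1KO+ITA, 667, 846 and 936 CPM under Irg1KO, and 977, 1119 and 1182 CPM under WT. Every WT library lay above every other library. The log2 difference Irg1KO+ITA minus WT was -0.69 ± 0.30 (edgeR adjusted p = 0.549), or -0.45 without Irg1KO+ITA replicate 3, and Irg1KO minus WT was -0.42 ± 0.29. Prdx6 gave -0.09 ± 0.32 for Irg1KO+ITA minus WT.

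The superoxide dismutases Sod1 (cytosolic) and Sod2 (mitochondrial) and catalase (Cat) turn superoxide into peroxide and peroxide into water. Sod2, which NF-κB also induces, stood at 1083, 1133 and 570.3 CPM under Irg1KO+ITA, 749, 1020.5 and 1123 CPM under Irg1KO, and 890.0, 1203 and 1417 CPM under WT. The lowest value was again in Irg1KO+ITA replicate 3, and Irg1KO+ITA minus WT was -0.33 ± 0.31, or -0.07 without that library. Sod1 and Cat gave -0.47 ± 0.33 and -0.36 ± 0.37 in that comparison, and the same library held their lowest values.

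In the NADPH arm, G6pdx, the first enzyme of the pentose phosphate pathway, stood at 80.9, 89.5 and 41.6 CPM under Irg1KO+ITA, 70.6, 114 and 96.5 CPM under Irg1KO, and 81.5, 92.6 and 165 CPM under WT. Irg1KO+ITA minus WT was -0.68 ± 0.36 (edgeR adjusted p = 0.589), or -0.3 without WT replicate 3, whose value was the highest. Me1, the cytosolic malic enzyme, stood at 11.7, 14.1 and 20.8 CPM under Irg1KO+ITA, 13.5, 15.1 and 11.6 CPM under Irg1KO, and 15.1, 12.5 and 11.6 CPM under WT. Its groups overlapped in every comparison. Pgd, which makes the second NADPH of the pathway, and Taldo1 and Tkt of its non-oxidative branch gave -0.13 ± 0.31, -0.09 ± 0.29 and -0.06 ± 0.31 for Irg1KO+ITA minus WT.

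Of the exporters, Abcc1 (ENSMUSG00000023088.16, also named MRP1), which carries glutathione conjugates out of the cell, stood at 49.0, 60.8 and 128 CPM under Irg1KO+ITA, 275, 76.8 and 143 CPM under Irg1KO, and 70.7, 62.2 and 91.5 CPM under WT. Irg1KO replicate 1 was the highest library, and Irg1KO replicate 2 lay within the range of WT. On the log2 scale Irg1KO+ITA minus Irg1KO was -1.06 ± 0.44 (edgeR adjusted p = 0.568), or -0.47 without Irg1KO replicate 1 and -1.6 without Irg1KO+ITA replicate 3. Without the 4 libraries it was -1.71 ± 0.44. Irg1KO minus WT was 1.14 ± 0.44 (edgeR adjusted p = 0.995), or 0.56 without Irg1KO replicate 1. Abcc4 stood at 19.6, 17.2 and 11.5 CPM under Irg1KO+ITA, 40.8, 24.7 and 17.0 CPM under Irg1KO, and 20.4, 27.9 and 18.1 CPM under WT. Its highest value was also in Irg1KO replicate 1, and Irg1KO+ITA minus Irg1KO was -0.78 ± 0.35 (edgeR adjusted p = 0.594), or -0.38 without that library.

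**Figure D3:**
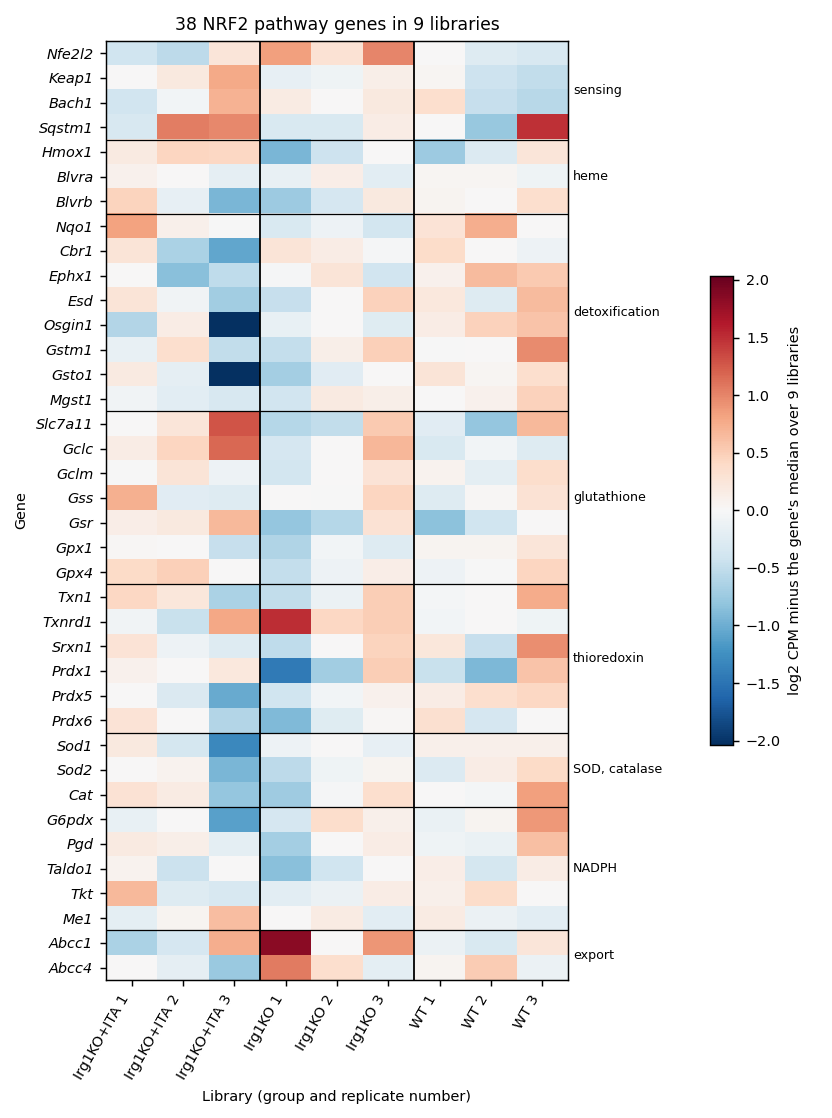
Log2 CPM of each of the 38 genes (rows, grouped by arm) minus its median over the 9 libraries (columns, by label and replicate), with red above and blue below the median. For 17 genes WT replicate 3 held the top value, and Irg1KO+ITA replicate 3 and Irg1KO replicate 1 held the bottom one for 15 and 11.

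Extremes gathered in 3 libraries. WT replicate 3 held the top value for 17 of the 38 genes, and for 12.4% of all genes tested. Irg1KO+ITA replicate 3 was the lowest for 15 members and the highest for 6 (26.3% and 19.8% of all genes). Irg1KO replicate 1 was the lowest for 11 (13.3% of all genes) and the highest for 3. The arms differed in direction within these libraries. In Irg1KO+ITA replicate 3 the sensing genes had a median of 0.75 above their 9-library medians on the log2 scale, while the dismutases and catalase stood at -0.93 and detoxification genes at -0.61. In Irg1KO replicate 1 the 2 exporters stood at 1.45 and the sensing genes at 0.0004. The heme, glutathione and thioredoxin arms stood at -0.74, -0.49 and -0.51. The dismutases and catalase stood at -0.53, and the NADPH and detoxification arms at -0.34 each.

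**Figure D4:**
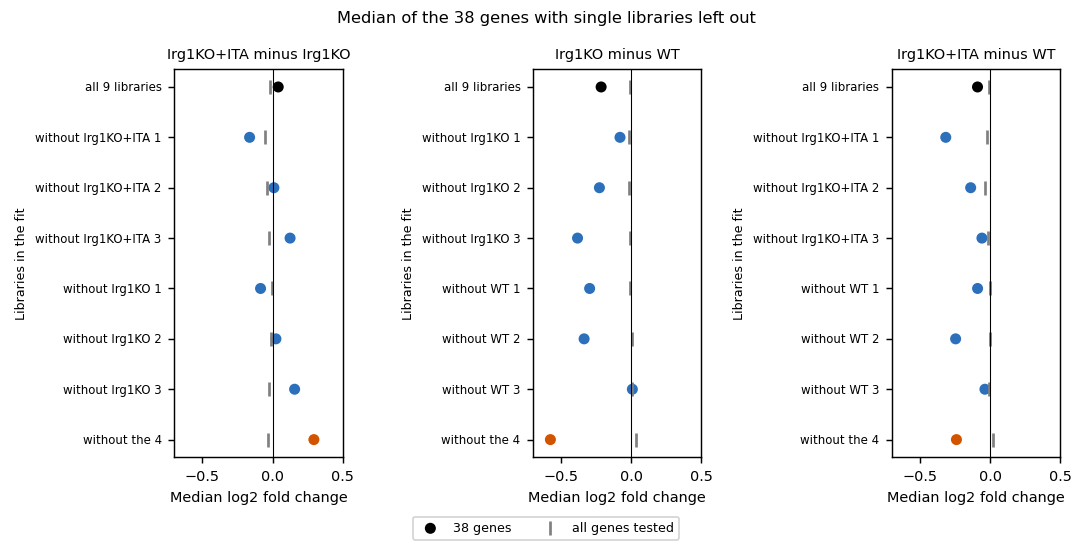
Median log2 fold change (horizontal axis) of the 38 genes (circles) and of all genes tested (grey ticks) with all 9 libraries, with 1 library left out, and without the 4 libraries whose Irg1 reads go against their label (orange). For Irg1KO minus WT the median ran between -0.38 and 0.01 with 1 library left out, and was -0.58 without the 4.

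Another 82 genes of the pathway, in 8 lists, were read from the same fit, and 74 passed the filter. None passed the edgeR threshold in any comparison. For Irg1KO+ITA minus Irg1KO 39 lay above 0 and 35 below (median 0.01), so that 47.3% lay below 0, against 51.6% of all genes. An unadjusted p under 0.05 was reached by 3 (4.05%, against 8.3% of all genes). Txnip, which binds and inhibits thioredoxin, averaged 551 ± 187 CPM under Irg1KO+ITA and 264 ± 116 CPM under Irg1KO (SD, n = 3 each), a log2 fold change of 1.07 ± 0.34 (edgeR adjusted p = 0.507). Fech, the ferrochelatase that completes heme, averaged 23.8 ± 8.47 CPM and 13.5 ± 2.38 CPM in the same order (0.82 ± 0.33, edgeR adjusted p = 0.547). The gene with the smallest p was Rbx1 among partners of MAF and CUL3 (0.51 ± 0.28), Gstz1 among other conjugation genes (-0.91 ± 0.48), Me2 among other NADPH genes (-0.41 ± 0.26), and Abcg2 among other transporters (-0.99 ± 0.51). Cybb, the catalytic subunit of the superoxide-making phagocyte oxidase, gave 0.29 ± 0.25, and Marco, a scavenger receptor, gave -0.31 ± 0.28.

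For Irg1KO minus WT 54 of the 74 (73.0%, against 51.1% of all genes) lay below 0 (median -0.17) and none reached an unadjusted p under 0.05. All 6 tested genes of the phagocyte oxidase list lay below 0, with a median of -0.25 and Rac2 at -0.41 ± 0.35. The gene with the smallest p was Mafg (0.48 ± 0.30), a small MAF partner of NRF2, Txn2 (-0.49 ± 0.27), the mitochondrial thioredoxin, Ugt1a6a (1.33 ± 0.64), Fech (-0.5 ± 0.33), Rpia (0.65 ± 0.45), Slc3a2 (-0.35 ± 0.27), the partner chain of Slc7a11, and Marco (-0.37 ± 0.28) in the remaining lists. For Irg1KO+ITA minus WT 48 of the 74 (64.9%, against 50.9% of all genes) lay below 0 (median -0.17). An unadjusted p under 0.05 was reached by 5 (6.76%, against 8.89% of all genes): Txnip (1.21 ± 0.34, edgeR adjusted p = 0.515), Gsk3b, a kinase that promotes NRF2 degradation (0.72 ± 0.27), Rpe (0.61 ± 0.28), Marco (-0.67 ± 0.28) and Akr1b3, aldose reductase (-1.14 ± 0.49). Slc48a1 (-0.6 ± 0.33), Abcg2 (-0.91 ± 0.52) and Rac2 (-0.65 ± 0.35) had the smallest p of the other lists.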

How the data were processed

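The authors deposited 1 table of raw counts, whole reads per gene. STAR, HTSeq and mm10 are named in the submitters' processing notes, and filters are not given in the sources used here. Per the labels' protocols, libraries were primed with oligo-dT and barcoded, so reads lie mostly near 3′ ends and levels are not compared between genes. The protocol mentions no molecular identifier, so limits from counts cover counting error only. The 5 summary lines of the table, 42.3% to 51.0% of reads per library, stayed out of library sizes. At 7361671 to 20430359 gene reads per library, 3 reads correspond to 0.147 to 0.408 CPM. Symbols were assigned to 21745 of 22165 identifiers. No libraries were duplicates: chi-square per degree of freedom was at least 35.3 for every pair.

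The fit used edgeR 4.0.16 in R 4.3.3 (two-sided quasi-likelihood F test) on all 9 libraries, with group as the only term, TMM scaling and filterByExpr (minimum count 10), and retained 10781 genes. Benjamini-Hochberg adjustment ran over all of them per comparison, with a threshold of 0.05. Each SE is the absolute log2 fold change over the square root of F. On simulated counts the procedure recovered 94, 93 and 88 of 100 planted 4-fold changes and 23, 15 and 7 of 100 planted 2-fold ones. Changes were planted only in genes averaging at least 10 CPM, so recovery for scarcer members such as Nqo1 and Ephx1 is not covered. False calls numbered 9, 8 and 6. The order is Irg1KO+ITA against Irg1KO, Irg1KO against WT and Irg1KO+ITA against WT. A lack of calls therefore does not show that a gene is unchanged. Alternatives changed the scaling, filter, tool (DESeq2 1.42.0, limma-voom with limma 3.58.1), robustness, groups, terms and libraries. The members, lists and the setting without the 4 libraries were chosen with earlier results of these data known. Every member is named. Values per library are given for a panel of 18 and for the 4 members of smallest p in each comparison, and of each further list the gene of smallest p is named; other values per library were added where a sentence turns on them.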

Additional observations from a re-analysis of the deposited data

How the results depend on the processing

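No member was called in any comparison under any of the 18 or 19 alternatives, except Abcc1 for Irg1KO+ITA against Irg1KO without the 4 libraries (1 member called). The sign held under all of them for 12 of 38 members in that comparison, for 22 in Irg1KO against WT and for 11 in Irg1KO+ITA against WT. Calls over all genes, 0 in the edgeR fit of all libraries, were 12, 1 and 17 with DESeq2 for Irg1KO+ITA against Irg1KO, Irg1KO against WT and Irg1KO+ITA against WT, and 217, 2 and 1 without the 4 libraries. Without a filter on low counts they were 80 for Irg1KO+ITA against Irg1KO and 92 for Irg1KO+ITA against WT. With single libraries left out they ran from 0 to 6, from 0 to 0 and from 0 to 4 in the same order. The median of the members, 0.04, -0.22 and -0.09, was 0.29, -0.58 and -0.24 without the 4 libraries. With single libraries left out it ran from -0.16 to 0.16, from -0.38 to 0.01 and from -0.32 to -0.037. With the description number as a term it was -0.06, -0.41 and -0.45. Leaving out 1 library moved the value by over 1.5 times or turned its sign for 35, 34 and 36 of 38 members. The causes were not tested. Without scaling beyond totals the median of all genes moved to -0.1 and -0.11 in the comparisons with Irg1KO+ITA, and that of members to -0.03 and -0.18. With the replicate block the medians were 0.06, -0.23 and -0.09 and no member was called. Same-numbered libraries correlated between -0.16 and 0.24 in their deviations from group means, so numbers were not taken to pair them. Precision was limited by the spread between libraries, with a median SE of 0.34 over the members in each comparison.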
